A study of Mus musculus with 4 samples.

Results

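Cell cycle and DNA replication genes are described here in the skin of newborn mice without loricrin, set against wildtype skin. A list of 41 genes was drawn up by function, from the licensing of replication origins to the separation of chromosomes, and a gene was taken as measured where a probe set of the arrays names it alone. That held for 39 of the 41, among 13674 genes named on the arrays. The first of the 2 array types measured 38 of them, the second measured 1 (Bub1b), and none was on both. The other 2 were Ccnb1, which none of the probe sets used here names, and Tyms, whose probe sets also name a pseudogene.

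RNA came from whole skin taken at postnatal day 0 from mice of the strain FVB/N, and the 2 genotypes were loricrin knockout and wildtype. Loricrin is the main protein of the cornified envelope, the shell of the dead outer cells of the epidermis. Each genotype had 2 arrays, 1 on each array type, so every ratio below compares 1 knockout array with 1 wildtype array and has no replicate error. The labels do not say how the loricrin allele was made, how many animals gave the RNA or of which sex they were. In whole skin, fewer cells of a type and less RNA per cell cannot be told apart.

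Cells that divide must copy their DNA once and share it out once. In G1 phase the D and E cyclins drive entry into the cycle and the MCM helicase is loaded on replication origins, in S phase polymerases and their clamp copy the DNA, and in G2 and M phase cyclin B with CDK1 and the Aurora and Polo kinases build the spindle and part the chromosomes. In newborn skin, dividing cells lie in the basal layer of the epidermis, in the growing hair follicles and in the dermis, while the cells that make loricrin have left the cycle.

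The signal is a MAS5 intensity per probe set, and the scale of every ratio is log2 of knockout over wildtype after both arrays were set to an equal trimmed mean. Signals below a floor (77.6 for the first type, 133 for the second) were set to the floor, so a ratio with 1 signal below it is a bound. Loricrin itself read 2013 on the knockout array and 41224 on the wildtype array on its brighter probe set. Xist, expressed from the inactive X chromosome, read 857 and 24.7, and the Y-linked Eif2s3y 42.7 and 1071, so sex and genotype cannot be told apart in any value below. Directions are relative to the typical probe set: scaling on 9 bacterial spike-in probe sets instead would add 0.69 to a ratio of the first type, and less where a signal falls under the floor (Aurka went from 0.43 to 0.88 and Ccnd2 from 0.62 to 0.94). With it every listed gene with both signals above the floor was positive, as were 95.6% of all genes with both signals above the floor.

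The median of the cell cycle and replication genes lay slightly above that of all genes. None of the 38 measured on the first type was 2-fold or more above or below wildtype, as 0.836% and 1.38% of all 8251 named genes were above and below. At 1.5-fold, 4 of 38 were higher, against 4.44% of all genes, and none was lower, against 5.11%. They were the survival and chromosome segregation gene Birc5, the mitotic kinesin Kif20a, the DNA topoisomerase Top2a and, as a bound, the cyclin Ccnd2. Both signals lay above the floor for 35 of the 38, for 3 of these 4 higher genes and for none lower. Over all 5403 genes with both signals above the floor, 5.57% were higher and 5.77% lower by that rule. The median log2 ratio of the 35 was 0.17, from -0.50 for Mki67 to 0.73 for Birc5, and that of the 5403 was 0.03. Of the 35, 24 or 68.6% were positive, as were 53.1% of the 5403.

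**Figure D1:**
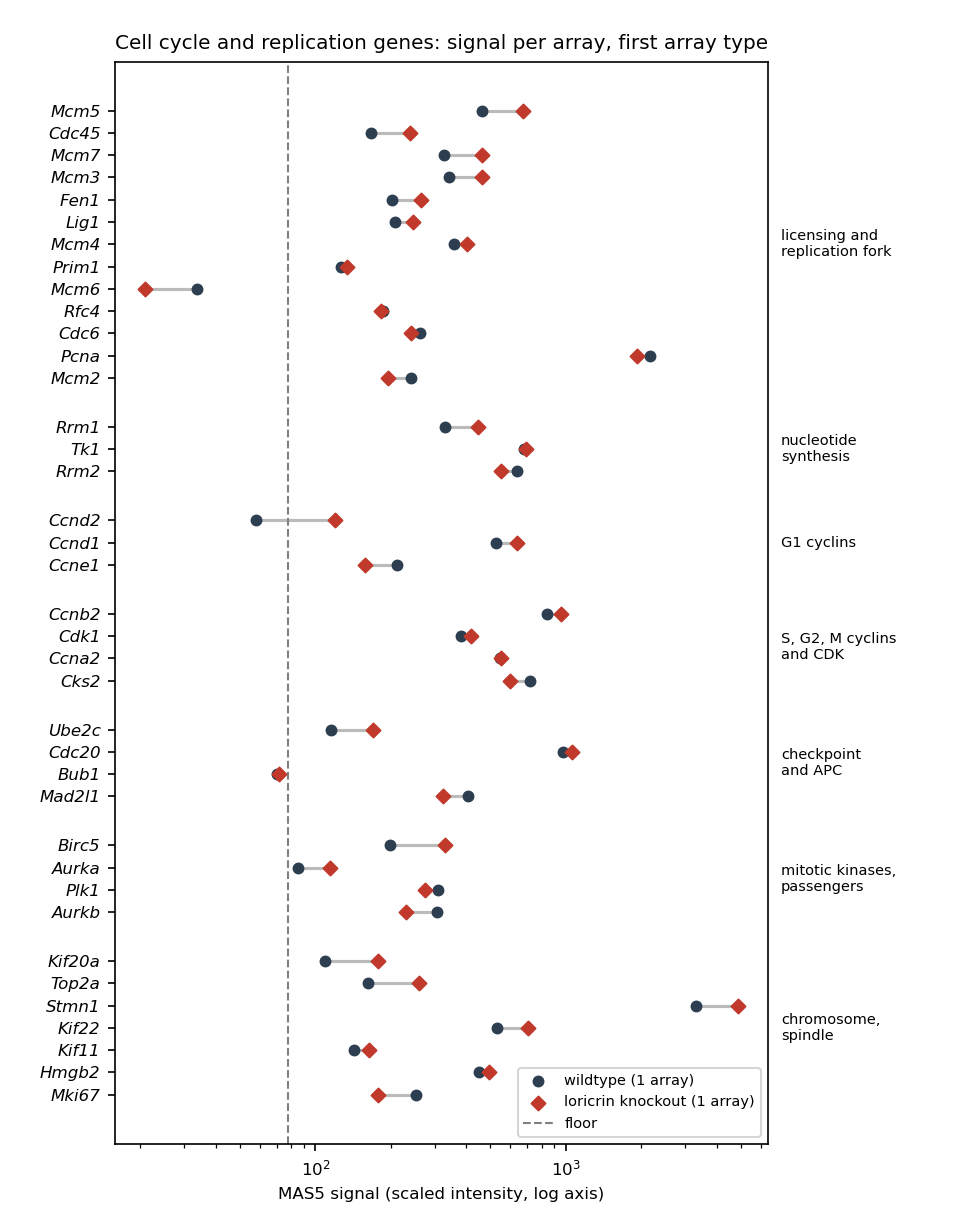
Signal of each measured cell cycle and replication gene on the first array type (log axis, MAS5 intensity), with 1 wildtype array as circles, 1 knockout array as diamonds and the floor of 77.6 as a dashed line, ordered by role. Knockout and wildtype lie close together for most genes, while Mcm6 and Bub1 lie below the floor in both arrays.

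The typical spread between probe sets of 1 gene was taken from 838 genes with several probe sets above the floor on the first type. Log2 ratios of probe sets for the same gene differed with a pooled SD of 0.41, which is not a spread between animals. It is not a limit either, and a ratio past 1 SD can still come from the probe set alone. Of the 35 genes, 11 had a ratio above that SD, against 12.8% of all genes with both signals above the floor, and 2 had a ratio below minus it, against 11.8%. The 11 were Mcm3, Aurka, Rrm1, Mcm7, Cdc45, Mcm5, Ube2c, Stmn1, Top2a, Kif20a and Birc5, and the 2 were Ccne1 and Mki67. The other 22 lay within 1 SD of 0. The count of 11 fell to 6 where a gene took the median over its probe sets and to 5 with the floor at the 60th percentile, which left 20 genes above it. Over all genes with both signals above the floor, 10.5% and 11.7% then lay above that SD. The median over probe sets counts a set below the floor in both arrays as 0. That alone lowered Rrm1 to 0.22, Stmn1 to 0.28 and Kif20a to 0.35. Mcm3 (0.37) and Mcm5 (0.13) fell through a further probe set with a signal above the floor.

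**Figure D2:**
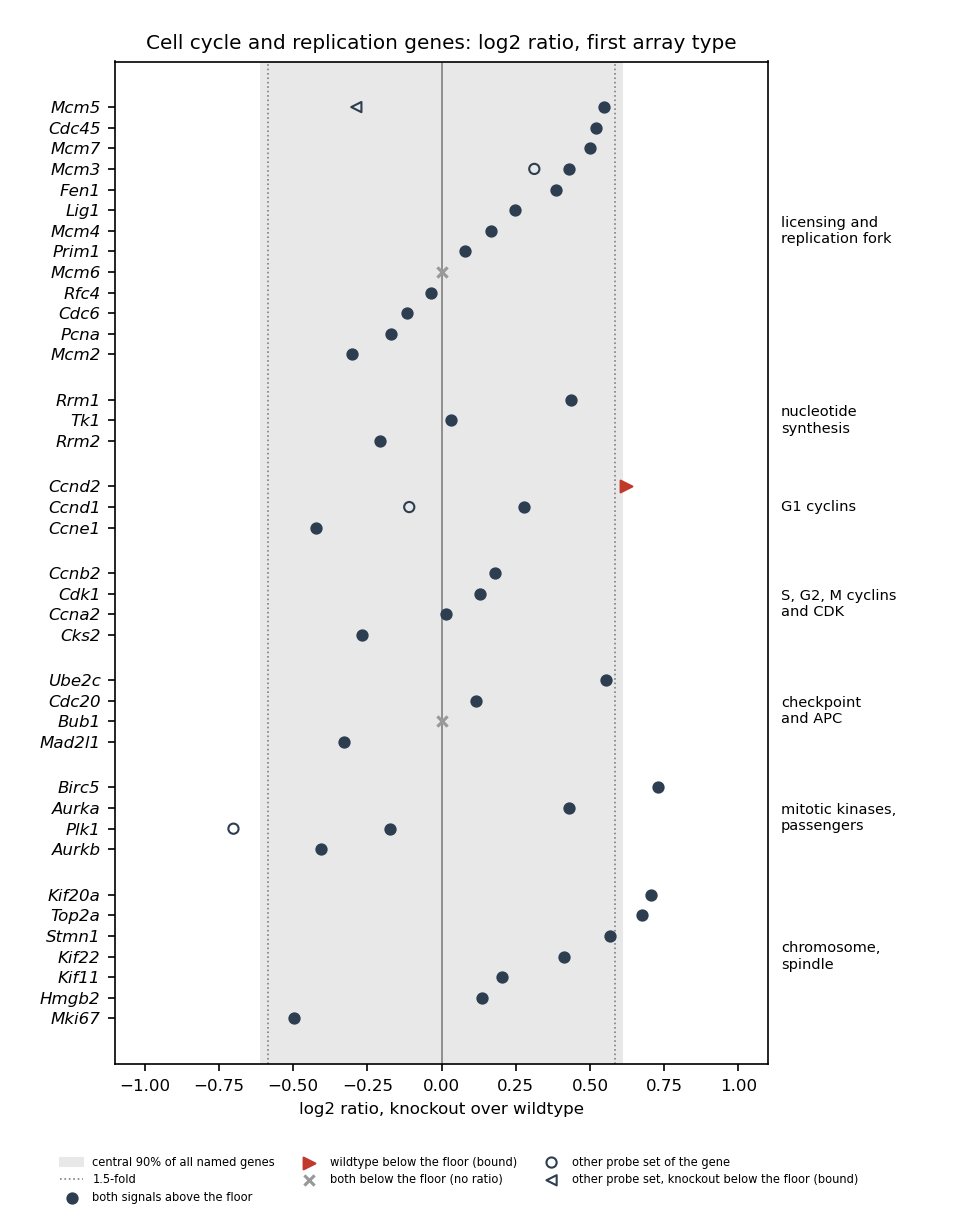
Log2 ratio of knockout over wildtype for each gene on the first array type, with other probe sets of the same gene as open symbols, the central 90% of all named genes (-0.61 to 0.61) shaded and 1.5-fold dotted. Birc5, Kif20a, Top2a and the bound of Ccnd2 lie above the shaded range and no gene lies below it on its brightest probe set, while the other readable probe set of Plk1 does.

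The MCM proteins form the ring-shaped helicase that unwinds DNA at the fork, and their genes did not share one ratio. Mcm5 read 673 on the knockout array and 461 on the wildtype array, a log2 ratio of 0.55. Mcm7 read 462 and 327, a ratio of 0.50, and Mcm3 read 461 and 342, a ratio of 0.43. These 3 subunits were thus higher in the knockout array, each by less than 1.5-fold. Mcm4 read 402 and 358, a ratio of 0.17. Mcm2 went the other way with 195 and 241, a ratio of -0.30. Mcm6 read 20.9 and 33.6, below the floor in both arrays, so that subunit could not be compared. A further probe set of Mcm3 gave 0.31, close to its brighter one, whose suffix marks shared sequence. By contrast, a further probe set of Mcm5 had a knockout signal of 42.8 below the floor and a wildtype signal of 94.7. That is a bound of -0.29, which opposes the brighter set. Further probe sets of Lig1, Tk1, Rrm1, Stmn1 and Mki67 lay under the floor in both arrays and gave no second ratio.

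Cdc6, which loads the helicase, and Cdc45, which switches it on, differed from each other. Cdc45 read 239 on the knockout array and 166 on the wildtype array, a log2 ratio of 0.52, and Cdc6 read 240.3 and 261, a ratio of -0.12. At the fork itself the values were mixed as well. The flap endonuclease Fen1, which trims the starts of lagging-strand fragments, read 263 and 201 (ratio 0.39), and the ligase Lig1, which joins them, read 246 and 207 (ratio 0.25). The primase subunit Prim1 read 134 and 127 (ratio 0.08) and the clamp loader subunit Rfc4 182 and 187 (ratio -0.04), which leaves both near equality. Pcna, the sliding clamp that holds the polymerase on DNA, read 1928 and 2169, a ratio of -0.17. Of the 12 licensing and fork genes with both signals above the floor, 8 were positive, none passed 1.5-fold and the median was 0.21.

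Of the 3 measured enzymes that make DNA precursors, 1 lay above the SD between probe sets and 2 within it. Rrm1, the large subunit of ribonucleotide reductase, read 446 on the knockout array and 330.0 on the wildtype array, a log2 ratio of 0.44, while its partner Rrm2, the small subunit made in S phase, read 551 and 637, a ratio of -0.21. Thymidine kinase Tk1 read 694 and 678, a ratio of 0.03. Signs thus differed within the reductase, and the Rrm2 value lies within the SD between probe sets. The probe sets shared by thymidylate synthase (Tyms) and its pseudogene, looked at after their values were seen, gave 0.14 on one and 0.89 on the other.

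Among the G1 cyclins the 3 genes pointed different ways. Ccnd1, the cyclin that growth signals induce, read 639 on the knockout array and 528 on the wildtype array (log2 ratio 0.28), and a dimmer probe set read 225.2 and 243 (ratio -0.11). Ccnd2 read 119 on the knockout array and 58.1 on the wildtype array, the latter below the floor, so it was at least 1.54-fold higher. Cyclin E1 (Ccne1), which acts with CDK2 at the start of S phase, read 158 and 212, a ratio of -0.42. The Ccnd2 bound reached 1.5-fold under 10 of 12 alternative settings. Its log2 ratio was 0.54 with the floor value added as a pseudocount, and both signals fell under a floor set at the 60th percentile.

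The cyclins that run S phase and mitosis and their kinase lay near wildtype. Cyclin A2 (Ccna2) read 553 on the knockout array and 547 on the wildtype array, a log2 ratio of 0.02. Cyclin B2 (Ccnb2) read 954 and 843 (ratio 0.18), the kinase Cdk1 read 418 and 382 (ratio 0.13) and its small partner Cks2 read 599 and 721 (ratio -0.27). All 4 lay within 1 SD between probe sets, and the median was 0.07.

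Genes of the spindle checkpoint and of the anaphase-promoting complex, which marks cyclins and securin for destruction, were split. Cdc20, the activator of that complex, read 1058 on the knockout array and 977 on the wildtype array, a log2 ratio of 0.11. Its ubiquitin-conjugating enzyme Ube2c read 169 and 115, a ratio of 0.56 from a single probe set whose suffix marks a relaxed probe choice. The checkpoint protein Mad2l1 read 323 and 405, a ratio of -0.33. The checkpoint kinase Bub1 read 71.3 and 70.2 on its brightest of 3 probe sets, all of them below the floor in both arrays. Bub1b (BubR1), measured on the second array type, read 257 on the knockout array and 31.0 on the wildtype array. The knockout signal lay above that type's floor and the wildtype signal below it, so Bub1b was at least 1.93-fold higher, where 6.76% of the 7542 genes on that type were at least 1.5-fold higher. Both of its signals fell under a floor set at the 60th percentile, and that call was then lost.

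Aurora B and survivin (Birc5) belong to 1 complex, the chromosomal passenger complex, which corrects faulty chromosome attachments, and their ratios had opposite signs. Birc5 read 328 on the knockout array and 198 on the wildtype array, a log2 ratio of 0.73 or 1.66-fold higher, above 97.3% of all genes with both signals above the floor. Aurkb read 231 and 306, a ratio of -0.41. Aurora A (Aurka), the kinase of the spindle poles, read 114 and 84.9, a ratio of 0.43 with the wildtype signal just above the floor. Polo kinase Plk1 read 273 and 309 (ratio -0.17), and its other probe set above the floor read 137 and 223 (ratio -0.70). Plk1 was thus below wildtype on both of its readable probe sets, by amounts that differed, and a further probe set lay below the floor. The dimmer of the readable probe sets has a suffix that marks shared sequence. Of the 4 genes 2 were positive.

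Genes for chromosome structure and the spindle held the highest median of the role groups, 0.41, with 6 of 7 positive. Top2a, the topoisomerase that untangles sister chromosomes, read 258 on the knockout array and 162 on the wildtype array, a log2 ratio of 0.67 or 1.60-fold. Kif20a, a kinesin of the late mitotic spindle, read 178 and 109, a ratio of 0.71 or 1.63-fold, on a probe set whose suffix marks shared sequence, while its other probe set read below the floor in both arrays. Stmn1, which takes microtubules apart, read 4876 and 3292, a ratio of 0.57. Each of these 3 ratios was larger than 1 SD between probe sets. Kif22, a kinesin that binds chromosome arms, read 704 and 529 (ratio 0.41), Kif11, which pushes spindle poles apart, 164 and 143 (ratio 0.20), and the chromatin protein Hmgb2 495 and 451 (ratio 0.14). The probe sets of Kif22 and Hmgb2 have a suffix that marks a relaxed probe choice. Mki67, which coats mitotic chromosomes and is the usual histological mark of dividing cells, was the exception with 179 on the knockout array and 252 on the wildtype array, a ratio of -0.50. Mki67 and Top2a are both textbook proliferation markers, and they had opposite signs in these arrays.

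Many genes of G2 and M phase share promoter elements, the CCAAT box bound by NF-Y and the cell cycle homology region (CHR) bound by the MuvB complex, while S phase genes often carry E2F sites. The 250 bases before the annotated start are shown for Birc5 and Top2a, which were past 1.5-fold, and for Mki67, chosen after its value was seen because its ratio was the lowest. Kif20a and, as a bound, Ccnd2 were past 1.5-fold as well and are not shown. The sequences are those of RefSeq on GRCm38.p6, at chr11:117848987-117849236 on the plus strand for Birc5, chr11:99024190-99024439 on the minus strand for Top2a and chr7:135716380-135716629 on the minus strand for Mki67. Capitals mark CCAAT and the CHR letters TTTGAA on either strand, and no marked motifs overlap.
Birc5: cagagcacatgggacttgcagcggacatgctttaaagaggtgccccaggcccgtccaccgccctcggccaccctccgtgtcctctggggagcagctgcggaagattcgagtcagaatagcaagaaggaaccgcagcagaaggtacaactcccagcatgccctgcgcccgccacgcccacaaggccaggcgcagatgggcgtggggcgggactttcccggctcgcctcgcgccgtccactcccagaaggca
Top2a: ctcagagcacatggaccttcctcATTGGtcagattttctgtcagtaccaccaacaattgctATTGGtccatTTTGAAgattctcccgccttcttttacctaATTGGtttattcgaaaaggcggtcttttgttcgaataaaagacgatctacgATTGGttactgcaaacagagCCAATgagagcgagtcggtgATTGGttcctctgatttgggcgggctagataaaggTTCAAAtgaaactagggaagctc
Mki67: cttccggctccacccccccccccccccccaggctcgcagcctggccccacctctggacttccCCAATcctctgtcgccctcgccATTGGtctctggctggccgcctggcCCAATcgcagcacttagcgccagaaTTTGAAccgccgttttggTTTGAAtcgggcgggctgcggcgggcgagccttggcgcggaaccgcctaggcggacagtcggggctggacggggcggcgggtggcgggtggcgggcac

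Top2a carries 6 CCAAT boxes and 2 CHR matches in this stretch, the nearest CHR starting 23 bases before the start site. Mki67 carries 3 CCAAT boxes and 2 CHR matches, the nearest starting 98 bases before it, and the Birc5 stretch holds neither in these letters. The pair with both motifs, Top2a and Mki67, thus had log2 ratios of 0.67 and -0.50, and Birc5 without them 0.73. Windows from 250 bases before to 50 after the start were held for 34 of the 41 genes, 38 windows in all. On either strand, TTTGAA was in 39.5% of these windows and in 17.9% of all 32851 promoter windows, and CCAAT in 68.4% and 37.4%. The E2F motifs TTTCCCGC or TTTGGCGC were in 13.2% and 1.56%. Among genes with both signals above the floor, the median log2 ratio was 0.19 for 14 with TTTGAA and 0.03 for 15 without, 0.18 for 21 with CCAAT and -0.0021 for 8 without, and 0.46 for 4 with an E2F motif and 0.13 for 25 without. These medians describe overlapping sets of genes, and the differences between them were not tested.

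The median was above that of all genes in each range of signal. Of the 7 genes whose mean signal lay between the floor and 200, 5 were positive with a median of 0.20, where 1160 genes of that range had a median of -0.05. Of 17 between 200 and 500, 11 were positive with a median of 0.17 against 0.06 over 1495 genes. Of 11 above 500, 8 were positive with a median of 0.11 against 0.04 over 2748 genes. Over all genes of these ranges, 44.7%, 56.4% and 54.9% were positive, from the lowest signal to the highest.

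Other genes of the cycle came from lists drawn up by function. Of 31 other replication genes none passed 2-fold, 24 had both signals above the floor and their median was 0.20. The maintenance methyltransferase Dnmt1, which copies DNA methylation behind the fork, read 1223 on the knockout array and 868 on the wildtype array (ratio 0.49). The nucleoside kinase Dck read 730.4 and 810.2 (ratio -0.15), on a probe set whose suffix marks shared sequence. At 1.5-fold, chosen after the values were seen, the clamp loader subunit Rfc2 was higher (ratio 0.67), and the origin recognition subunits Orc4 and Orc6 (-0.75 and -0.81) and the single-strand binding subunit Rpa3 (-0.66) were lower. On the second type 8 such genes were measured, and Gins1, a subunit of the active helicase, read 178 on the knockout array and 577 on the wildtype array, 3.25-fold lower. Its probe set has a suffix that marks a relaxed probe choice, and 160 of the 7542 genes on that type were at least 2-fold lower. Chosen after the values were seen, Mcmbp (0.71), which binds MCM subunits, and Gins3 (0.70), a partner of Gins1, were higher there. The further replication genes were thus not of one direction.

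Of 28 other cyclins, kinases and E2F or pocket proteins, 1 passed 2-fold on the first type, and 16 of the 21 with both signals above the floor were positive (median 0.15). It was Cdc25c, the phosphatase that switches on CDK1 at mitosis, with 288 on the knockout array and 131 on the wildtype array, 2.20-fold higher. The suffix of its probe set marks shared sequence. On the first type 0.836% of all named genes were at least 2-fold higher. Of those with both signals above the floor, 53.1% were positive. Chosen after their values were seen, the repressor E2f8 had a ratio of 0.76 and Foxm1, the activator of G2 and M phase genes, 0.71, and E2f1 was at least 1.71-fold higher. The probe sets of E2f8 and E2f1 also have a suffix that marks shared sequence. Rbl2 (p130), a pocket protein of resting cells, was at least 1.68-fold higher, and Lin9, a MuvB subunit, had a ratio of -0.64. Activators and repressors were thus both among the higher genes. On the second type none of 14 passed 1.5-fold, and the median was 0.10. There Ccnh, the cyclin partner of CDK7, read 3091 and 3442 (ratio -0.15), and the repressor E2f4 1533 and 1289.7 (ratio 0.25).

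Of the 8 CDK inhibitors, which halt the cycle, 1 passed 2-fold. Cdkn1c (p57), an imprinted inhibitor, read 221 on the knockout array and 829 on the wildtype array, 3.76-fold lower. Of all named genes on the first type, 1.38% were at least 2-fold lower. Cdkn1a (p21) read 1956 and 1872, a log2 ratio of 0.06, and the other 3 inhibitors with both signals above the floor, Cdkn2b, Cdkn2c and Cdkn2d, lay between -0.17 and 0.15. Cdkn1c was thus the one past 1.5-fold of the 5 with both signals above the floor. Of the other 3, Cdkn1b had neither signal above it, and Cdkn2a and Cdkn3 had 1 each.

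The other mitosis genes had a median near 0. Of 43 measured on the first type, 36 had both signals above the floor, 17 of them positive, with a median of -0.01 and none past 2-fold. The tubulin Tubb5 read 5501 on the knockout array and 4729 on the wildtype array (ratio 0.22), on a probe set whose suffix marks shared sequence. The histone variant gene H2az1 read 3205 and 4616 (ratio -0.53). Of the 29 on the second type none passed 2-fold, 7 of 20 were positive and the median was -0.15. Of all genes on that type with both signals above the floor, 51.1% were positive. The cohesin subunit Smc1a read 4962 and 3986 there (ratio 0.32) and Mad2l2 3183 and 3237 (ratio -0.02). Chosen after the values were seen, the importin Kpna2 (-0.72) was the one gene past 1.5-fold among the 43, and separase (Espl1, 0.64) the one among the 29. Of 14 genes of the DNA damage checkpoint and repair none passed 2-fold on the first type, with a median of -0.06. Gadd45a, a p53 target, read 650.0 and 769, a log2 ratio of -0.24, and the p53 ligase Mdm2 604 and 484, a ratio of 0.32. The one past 1.5-fold among the 14 was Mre11a (0.67), chosen after the values were seen and read on a probe set whose suffix marks shared sequence. Atr, the kinase that responds to stalled forks, read 202 and 265 on the second type (ratio -0.39).

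**Figure D3:**
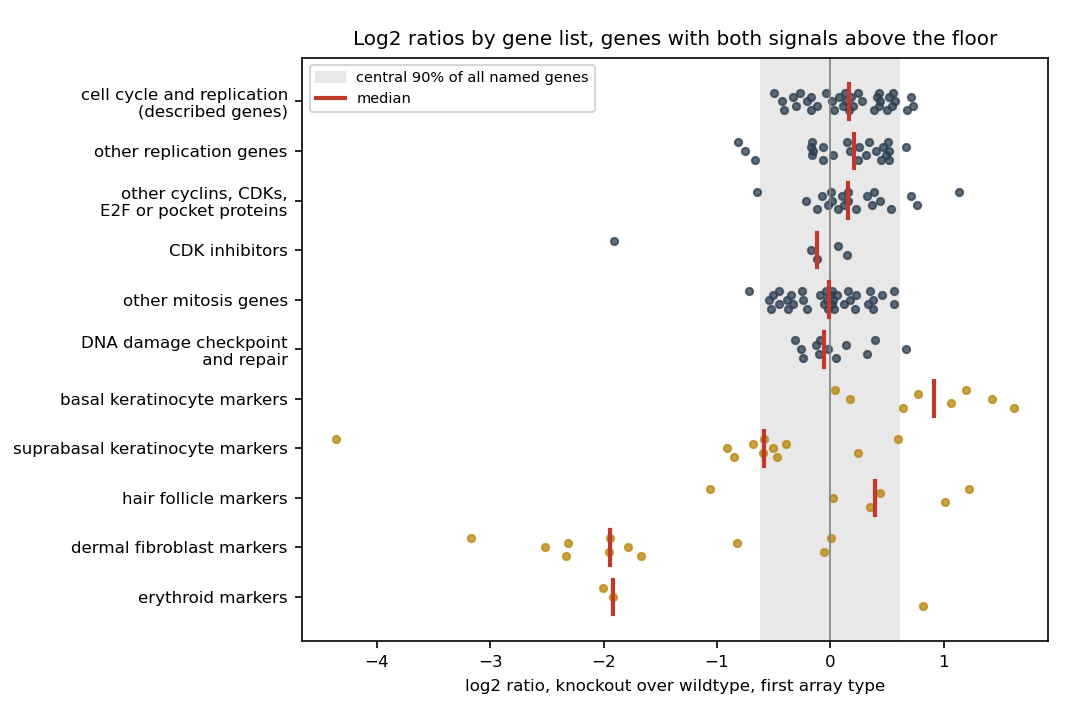
Log2 ratios on the first array type of genes with both signals above the floor, by list, with each list's median as a bar and the central 90% of all named genes shaded. The cell cycle lists lie mostly inside the shaded range, and the marker lists of basal keratinocytes and dermal fibroblasts lie on opposite sides of 0.

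Genes of the cycle on both array types gave the one comparison with a repeat. The further lists held 24 genes named on both, and 9 of them had a mean log2 signal above the floor of each type. None of these 9 is among the 41, and limma with array type as a block called none of them, where 1 of 1081 genes or 0.0925% passed an adjusted p of 0.05. None of the 9 had an unadjusted p under 0.05 either, as 110 of the 1081 did. The labels do not say that arrays of a genotype held RNA of separate animals, so these p-values measure the disagreement between array types. That disagreement is largely pooled over the 1081 genes, and a gene's own part in it is small. Foxm1 gave 488 against 299 on type 1 and 169 against 151 on type 2, a mean log2 ratio of 0.44 (SE 0.25, limma adjusted p = 0.553, positive on 2 of 2 types). Cdk7, the kinase that activates other CDKs, had ratios of 0.53 and 0.30, a mean of 0.41 (SE 0.24, limma adjusted p = 0.559). Nusap1, a spindle protein, had 0.56 on type 1 and -0.52 on type 2, and Tubb5 had 0.22 and -0.53. Of the 9 genes 6 had opposite signs on the array types, also Bub3, Cdc23, Incenp and Lmnb1, while Foxm1 and Cdk7 were positive and Stag1 negative on both.

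Markers of the cell types in skin differed between the same arrays of the first type. On that type, 4.44% of all 8251 named genes were at least 1.5-fold higher in knockout and 5.11% at least 1.5-fold lower. Of 11 measured basal keratinocyte markers, 6 were higher by 1.5-fold or more and none was lower in knockout, with a summed signal of 9781 against 6087, and the basal keratins Krt5, Krt14 and Krt15 read below the floor in both arrays of that type. Krt15 read 26582 and 22304 on the second. Of 15 dermal fibroblast markers, 13 were lower by that much and none was higher, with a summed signal of 5841 against 14370. Of 10 hair follicle markers 2 were higher and 1 lower (3254 against 2327), and of 8 erythroid markers 1 was higher and 3 lower (5870.3 against 22013). Of 11 suprabasal markers, loricrin among them, 1 was higher and 5 lower. The summed signals were 6245 and 6446 for immune markers, 698 and 1298 for endothelial, 673 and 906 for muscle, 552 and 662 for adipocyte and 2800.3 and 1974 for melanocyte markers. The part of these cell types in the ratios of the cell cycle genes was not tested.

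The median of the cell cycle and replication genes stayed above that of all genes under each of the 12 alternative settings tried, by 0.086 to 0.14 on the log2 scale. Some of these settings could hardly change that difference. Deposited values, median centring and spike-in scaling shift nearly all ratios by the same amount, and updated symbols left the listed genes unchanged. With spike-in scaling the median of the listed genes was 0.84, against 0.70 for all genes. Of the 38, 26 were then at least 1.5-fold higher, as were 43.0% of all genes. The 1.5-fold calls depended on the floor, since none of the 4 held with it at the 60th percentile or added as a pseudocount. Kif20a was also below 1.5-fold where a gene took the median over its probe sets (0.35), since its set below the floor counted as 0. It read below the floor where plain probe sets alone were used.

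**Figure D4:**
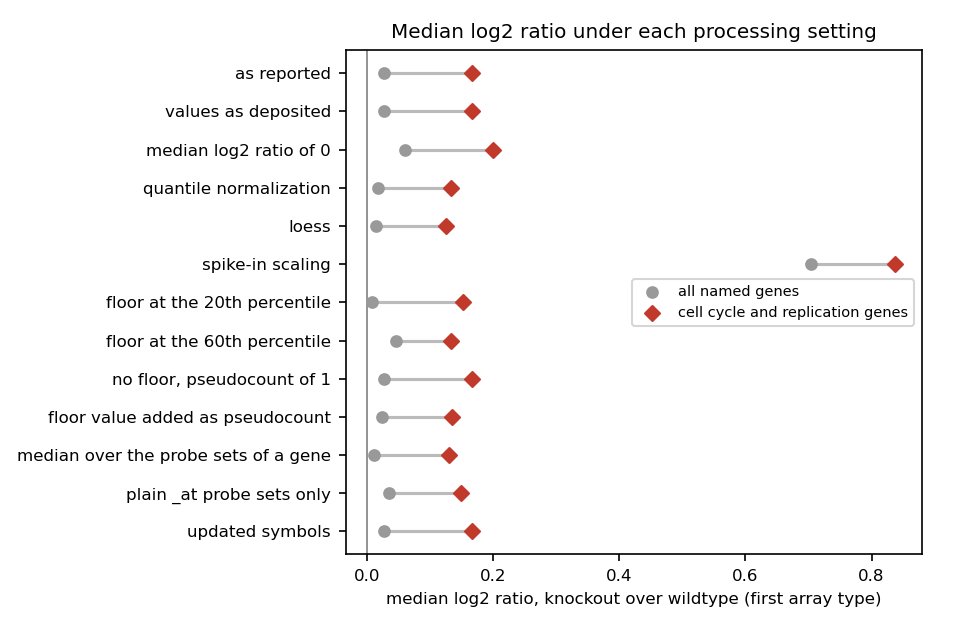
Median log2 ratio of knockout over wildtype on the first array type under each setting, for the cell cycle and replication genes (diamonds) and for all named genes (circles), in both cases over genes with both signals above the floor. The diamond lies to the right of the circle in each row, by 0.086 to 0.14, while spike-in scaling moves both. Settings that shift nearly all ratios alike could hardly change that distance.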

How the data were processed

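The authors' deposited array intensity values were used, as linear MAS5 signals of each probe set on each array, per the submitters' processing notes. The MAS5 version and its scaling are not given in the sources, and the number of arrays limits the precision. Both arrays of each type were brought to the same 2% trimmed mean (as deposited, 500.2 to 500.4), 66 control probe sets per type were left out, and a floor was set at the mean of the 40th percentiles. A gene took the probe set with the highest mean signal among those naming 1 gene in the platform annotation (10833 and 10581 probe sets; 396 and 178 name several genes, 1193 and 1652 none listed). Within a type, 1 array stands for each genotype and nothing could be tested, so genes were counted at 1.5-fold and 2-fold. For genes above the floor on both types by mean log2 signal, limma 3.58.1 (lmFit, eBayes, Benjamini-Hochberg adjustment) was fitted over 4 arrays with array type as a block, 1 residual degree of freedom per gene and 13.9 from the prior. The steps were tested on simulated data with changes larger than 2-fold, so calls at 1.5-fold and bounds at the floor were not covered.

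Values were printed for all listed genes, and from each further list for genes past 2-fold or, failing those, its brightest genes. The genes, lists, alternatives and the marker lists were chosen with earlier results of these data known. The 12 alternatives covered scaling, floor, value per gene and symbols. The count against the SD between probe sets was added after the data were seen.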

Additional observations from a re-analysis of the deposited data

How the results depend on the processing

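Of the alternatives to scaling, only spike-in scaling moved the median of the cell cycle and replication genes on the first type by more than 0.1, from 0.17 to 0.84. It also gave 26 genes at least 1.5-fold and 12 at least 2-fold higher, 29 above the SD between probe sets and 0 below minus it. Over all genes, 43.0% were then at least 1.5-fold higher, and the share past 2-fold was not counted. Among all genes with both signals above the floor, 78.0% lay above that SD and 1.18% below minus it. With the floor at the 60th percentile or added as a pseudocount, 0 genes were at least 1.5-fold higher, 5 and 6 lay above that SD and 0 below minus it. Over all genes, 2.24% and 3.10% were at least 1.5-fold higher under these settings. Among all genes with both signals above the floor, 11.7% and 8.54% lay above that SD and 8.33% and 7.88% below minus it. With the floor at the 20th percentile or a pseudocount of 1, 1 gene was at least 2-fold higher (Ccnd2) and 1 at least 1.5-fold lower (Mcm6, below the reported floor). Of all genes, 11.97% and 16.06% were at least 1.5-fold lower under these settings, and the share past 2-fold was not counted. The median over probe sets left 6 above and 1 below, with sets below the floor in both arrays counted as 0. Median centring and quantile normalization left 1 below. The shares of all genes below were 9.86%, 10.3% and 11.3% in that order. No listed gene was on both array types under any setting. The limma fit called 0 genes under quantile normalization, with the floor at the 20th percentile, with a pseudocount of 1 and without the block for array type (unadjusted p under 0.05 for 100, 84, 95 and 0 genes), 10 under loess and 6 at the higher floor. It called none of the cell cycle genes above the floor on both types under these settings, nor did any reach an unadjusted p under 0.05. Leaving out an array was not run, since each type has 1 array per genotype.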
